A study of Mus musculus with 5 samples.

Results

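Immediate-early response genes were followed in 5 mouse hearts after ischemia and reperfusion. The list held 33 genes, named by symbol, out of 22180 gene symbols on the array: the AP-1 genes Fos, Fosb, Fosl1, Fosl2, Jun, Junb, Jund, Atf3 and Maff, 4 EGR, 3 NR4A, 4 DUSP, 4 KLF and 3 IER genes, Zfp36, Zfp36l1, Myc, Gadd45b, Gadd45g and Rhob. For each symbol the probe with the highest mean over the 5 arrays was taken among the probes that carry that symbol alone. Fosl1 has no such probe and was not analysed here. The other 32 were measured, and all 32 lay above the level filter (a mean log2 value of 3.42) and were tested.

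The hearts came from wildtype C57Bl6J mice at zeitgeber time 12 (hours after lights on). Each was perfused outside the body on a Langendorff apparatus for 20 min, held without flow for 20 min, reperfused for 20 min and frozen. In the antagonist group (n = 3) the mice had received an antagonist of REV-ERB alpha, the clock repressor encoded by Nr1d1, into the peritoneum at 10 µM as labelled, 4 h and 1 h before the protocol. The sham group (n = 2), as the labels call it, had the same perfusion protocol and no antagonist. The compound is not named and no vehicle injection is stated in the labels. Non-ischemic hearts were not analysed here, and no value below measures induction by ischemia or by perfusion. Whole-heart RNA does not separate fewer cells of a type from less RNA per cell.

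Immediate-early genes are transcribed within minutes of a stimulus by factors already present in the cell, without new protein synthesis. MAP kinases phosphorylate ternary complex factors bound beside serum response factor (SRF) at CArG boxes, and CREB is phosphorylated at cAMP response elements. Many products are transcription factors (FOS, JUN, EGR, NR4A, KLF), and others close the loop: DUSP proteins dephosphorylate MAP kinases and ZFP36 proteins promote the decay of messengers with AU-rich elements. In heart muscle these genes respond to stretch, to hormones and to reperfusion.

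The promoters of several members hold sequences that match these elements or their core. RefSeq promoter sequence (assembly GRCm38.p6) was found for 27 of the 33 genes, and the 250 bases before each annotated start were searched on both strands. 5 are shown, those of Fos as the founding member, of Egr2, Nr4a2 and Nr4a3 from the families whose members all had lower means with the antagonist, and of Zfp36, whose values were all higher there. For a gene with several annotated starts, the window with the most CArG and TGACG matches is shown. Another Egr2 window held a CArG box and no TGACG, and another held neither. Capitals mark each CArG box and each TGACG, the core of the cAMP response element, in either orientation (CGTCA on the strand shown).
Fos, chr12:85473640-85473889, plus strand: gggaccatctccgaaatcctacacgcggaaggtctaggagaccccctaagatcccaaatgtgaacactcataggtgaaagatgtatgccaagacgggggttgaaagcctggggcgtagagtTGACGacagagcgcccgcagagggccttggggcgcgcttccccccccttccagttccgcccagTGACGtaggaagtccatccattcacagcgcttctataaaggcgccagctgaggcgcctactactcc
Egr2, chr10:67537619-67537868, plus strand: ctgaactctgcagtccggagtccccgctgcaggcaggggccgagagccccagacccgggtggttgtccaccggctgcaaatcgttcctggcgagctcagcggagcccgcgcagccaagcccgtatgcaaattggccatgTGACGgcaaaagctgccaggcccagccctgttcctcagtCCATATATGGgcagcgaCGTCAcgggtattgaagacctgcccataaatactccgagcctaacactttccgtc
Nr4a2, chr2:57124004-57124253, minus strand: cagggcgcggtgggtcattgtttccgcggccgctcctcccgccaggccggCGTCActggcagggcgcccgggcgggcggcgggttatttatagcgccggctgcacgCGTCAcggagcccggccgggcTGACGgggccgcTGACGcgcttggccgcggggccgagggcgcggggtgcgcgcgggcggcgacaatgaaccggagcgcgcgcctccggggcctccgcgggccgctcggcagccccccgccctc
Nr4a3, chr4:48045055-48045304, plus strand: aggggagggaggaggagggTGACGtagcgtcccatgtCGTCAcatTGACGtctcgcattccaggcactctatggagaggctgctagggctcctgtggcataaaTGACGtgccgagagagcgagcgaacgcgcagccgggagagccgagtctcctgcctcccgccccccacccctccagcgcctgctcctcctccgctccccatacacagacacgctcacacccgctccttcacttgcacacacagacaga
Zfp36, chr7:28379229-28379478, minus strand: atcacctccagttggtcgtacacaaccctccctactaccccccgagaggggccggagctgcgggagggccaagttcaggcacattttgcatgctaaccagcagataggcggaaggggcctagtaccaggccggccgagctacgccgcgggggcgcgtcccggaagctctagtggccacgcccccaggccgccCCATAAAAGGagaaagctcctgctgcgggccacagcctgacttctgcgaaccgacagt
A CArG box lay in these windows for 3 of the 27 genes (Dusp5, with 2 boxes, Egr2 and Zfp36), and 1.62% of all 27025 genes with a window had one. TGACG was found for 14 of the 27 and for 19.8% of all genes. Nr4a1, Nr4a2 and Nr4a3 each held 4 matches to TGACG, as did 0.137% of all windows (4 or more). The full palindrome TGACGTCA, which contains TGACG on both strands, was found for Dusp1 and Maff (2 of 27, and 1.77% of all genes). CACGTG, the E-box of the clock activators, was found for 8 of 27 and 6.86% of all genes. AGGTCA, the core of the element that REV-ERB alpha binds, was found for 0 of 27 and for 15.8% of all genes. Genes with several annotated starts were counted once, with a match in any window. These are matches of letters in one short window, and elements farther upstream, in introns or in enhancers were not searched. The members and all genes were not matched for base composition, and the shares were not tested against each other.

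No immediate-early gene passed the test between antagonist and sham hearts. Of 32 members 0 passed an adjusted p under 0.05 in limma (smallest adjusted p 0.64), and among the 15294 genes tested 0 did (0%). At an unadjusted p under 0.05 there was 1 member, Klf4, beside 4.6% of all genes. The list had no common direction: 17 members had a higher mean with the antagonist (16 after a second quantile normalization) and 15 a lower one, where 47.7% of all genes were higher, 46.3% lower and 6.03% equal, and the median difference (antagonist minus sham, log2) was 0.02 for the members and 0 for all genes. The 5 arrays leave wide intervals, however. The 95% limma interval lay between -1 and 1 (within 2-fold either way) for 27 of the 32 members and between -0.5 and 0.5 for 10.

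**Figure D1:**
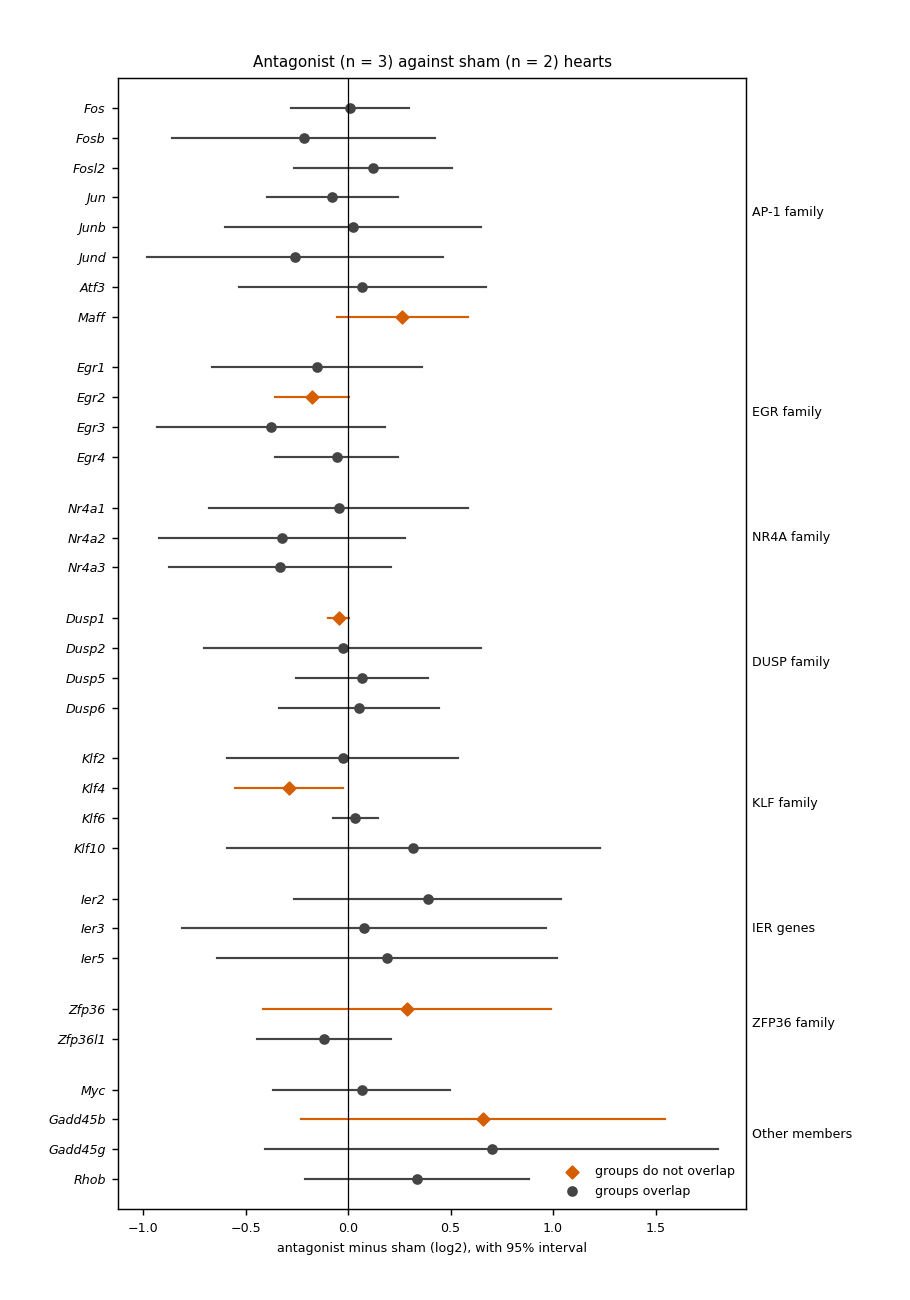
Difference of antagonist (n = 3) minus sham (n = 2) hearts on the log2 scale for each of 32 members, with limma's 95% interval as a bar; orange diamonds mark the 6 members whose groups do not overlap. Only the interval of Klf4 leaves out 0, and those of Gadd45b and Gadd45g reach farthest to the right.

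All 4 EGR genes and all 3 NR4A genes had a lower mean in the antagonist hearts, and none passed the test. EGR1, EGR2 and EGR3 are zinc finger activators of the same GC-rich element, and EGR4 is a more distant relative. Egr1 (Entrez Gene 13653) measured 8.99 and 8.59 in sham and 8.51, 8.84 and 8.57 with the antagonist, so that sham replicate 1 was highest and the other sham heart lay among the treated ones. Egr2 (13654) measured 7.23 and 7.04 in sham and 6.97, 6.97 and 6.94 with the antagonist. It is one of the 6 members whose groups do not overlap: the difference was -0.18 ± 0.06 (SE; 95% interval -0.36 to 0.01), with a limma adjusted p of 0.64 and an exact permutation p of 0.10, the smallest that 10 divisions of 5 arrays allow. Egr3 (13655) measured 6.11 and 5.56 in sham and 5.41, 5.41 and 5.56 with the antagonist, a difference of -0.38 ± 0.19 (SE), with sham replicate 1 as the high array. Egr4 (13656), close to the level filter, lay between 3.58 and 3.88 on the 5 arrays with a difference of -0.06. Without sham replicate 1 the difference was 0.05 for Egr1 and -0.10 for Egr3, and without antagonist replicate 1 that of Egr4 was 0.02. Without sham replicate 2 the difference of Egr2 was -0.27. There sham replicate 1 alone is set against 3 values, of which a pair is exactly equal.

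The NR4A genes encode orphan nuclear receptors that act without a known ligand. Nr4a1 (15370) measured 9.81 and 10.04 in sham and 9.87, 10.19 and 9.57 with the antagonist, and its groups overlapped fully. Nr4a2 (18227) measured 7.64 and 7.09 in sham and 6.88, 7.14 and 7.12 with the antagonist, or -0.32 ± 0.21 (SE). Nr4a3 (18124) measured 8.96 and 8.55 in sham and 8.50, 8.57 and 8.20 with the antagonist, or -0.33 ± 0.19 (SE). For both, sham replicate 1 stood above the other 4 arrays, which lay close together for Nr4a2. Without that array the differences were -0.05 for Nr4a2 and -0.13 for Nr4a3. Nr4a1 was at -0.05 over all arrays and changed sign without sham replicate 2 (0.07) or antagonist replicate 3 (0.11).

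The AP-1 genes went both ways, 5 with a higher mean and 3 with a lower one (Fos turns to -0.01 after a second quantile normalization), and their median difference was 0.02. AP-1 dimers include pairs of a JUN protein with a FOS, ATF or MAF relative. Fos (14281) was nearly level between the groups, at 9.02 and 9.20 in sham and 9.13, 9.23 and 9.005 with the antagonist, a difference of 0.01 with a 95% interval from -0.28 to 0.30. Jun (16476), its classic partner, measured 10.72 and 10.78 in sham and 10.81, 10.72 and 10.49 with the antagonist (difference -0.08, 95% interval -0.40 to 0.24). The groups of both genes overlapped on the log2 scale, and both intervals lie between -0.5 and 0.5. Fosb (14282) measured 8.44 and 8.19 in sham and 7.75, 8.35 and 8.19 with the antagonist, where antagonist replicate 1 was the low array, and its difference of -0.22 was -0.05 without that array. Fosl2 (14284) lay between 7.32 and 7.36 on 4 arrays and at 7.69 on antagonist replicate 2, without which its difference of 0.12 was 0.0090.

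The other AP-1 members showed the same overlap, with Maff as the exception. Junb (16477), a weaker activator than Jun, measured 7.74 and 8.10 in sham and 7.90, 8.24 and 7.70 with the antagonist, a difference of 0.03. Jund (16478) measured 8.14 and 8.74 in sham, a gap wider than the group difference of -0.26, and 8.35, 8.27 and 7.93 with the antagonist. A second, dimmer Jund probe (mean 5.02, against 8.28 for the probe used) gave a difference of the other sign, 0.16. Atf3 (11910), a stress-induced repressor of the same family, measured 9.90 and 9.99 in sham and 10.31, 10.05 and 9.69 with the antagonist, so the sham values lay inside the treated range. Maff (17133), a small MAF protein without an activation domain, measured 5.40 and 5.25 in sham and 5.50, 5.76 and 5.50 with the antagonist, without overlap. Its difference was 0.26 ± 0.11 (SE, 95% interval -0.06 to 0.58), with a limma adjusted p of 0.64 and an exact permutation p of 0.10. Antagonist replicates 1 and 3 had exactly the same Maff value. The Maff difference stayed between 0.18 and 0.34 with any single array left out. In contrast, Fos ran from -0.08 (without sham replicate 1) to 0.11 (without sham replicate 2) and was also negative without antagonist replicate 2 (-0.05). Jun reached 0.01 without antagonist replicate 3, Jund 0.04 without sham replicate 2 and Atf3 -0.08 without antagonist replicate 1. Junb was at -0.15 without sham replicate 1 and at -0.12 without antagonist replicate 2.

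**Figure D2:**
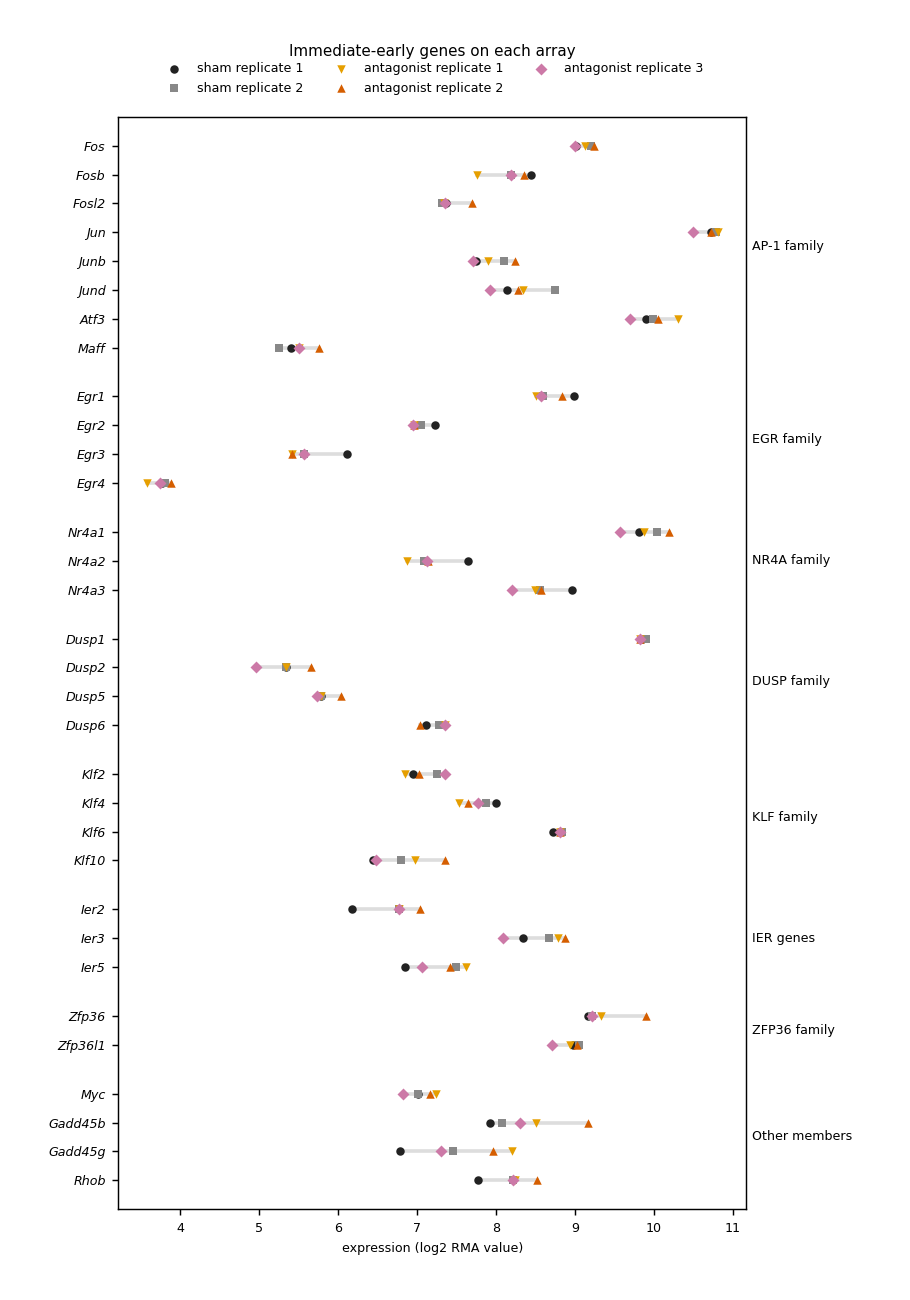
Log2 RMA value of each of 32 members (rows, by family) on each of the 5 arrays, with a grey line from the lowest to the highest value; black and grey points are sham hearts and coloured points antagonist hearts. Values of different genes come from different probes and are not comparable as amounts; within a row, sham replicate 1 is the highest point for Egr1, Egr2, Egr3, Nr4a2, Nr4a3, Klf4 and Fosb and the lowest for Ier2, Ier5, Zfp36, Klf6, Klf10, Gadd45b, Gadd45g and Rhob.

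Gadd45g and Gadd45b had the largest positive differences of the list. They encode small stress proteins that bind the kinase MEKK4 upstream of p38 and JNK, and were the 2 members with a difference of at least 0.5, where 0.713% of all genes reached it; 0 members lay at -0.5 or below, beside 0.432% of all genes. Gadd45b (17873) measured 7.92 and 8.07 in sham and 8.50, 9.17 and 8.30 with the antagonist, without overlap. The means were 8.66 ± 0.45 (SD, n = 3) and 7.998 ± 0.11 (SD, n = 2), a difference of 0.66 ± 0.31 (SE) or 1.58-fold, with a limma adjusted p of 0.64. Antagonist replicate 2 supplied the highest value, and without it the difference was 0.40. Gadd45g (23882) measured 6.79 and 7.45 in sham and 8.20, 7.96 and 7.30 with the antagonist, so antagonist replicate 3 lay below sham replicate 2. Its difference was 0.70 ± 0.38 (SE) or 1.62-fold (limma adjusted p = 0.64), and it ran from 0.37 without sham replicate 1 to 1.03 without sham replicate 2. Rhob (11852), a small GTPase of endosomes and actin, measured 7.77 and 8.22 in sham and 8.24, 8.52 and 8.22 with the antagonist. Its difference of 0.33 came to 0.11 without sham replicate 1. Myc (17869), the growth regulator, had the same value of 7.01 in both sham hearts and 7.24, 7.17 and 6.83 with the antagonist, a difference of 0.07 that was -0.02 without antagonist replicate 1.

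The 3 IER genes had higher means with the antagonist and overlapping groups. Ier2 (15936), a nuclear protein of the first wave, measured 6.17 and 6.77 in sham and 6.77, 7.03 and 6.77 with the antagonist. Sham replicate 1 was the low array, and without it the difference of 0.39 ± 0.23 (SE) was 0.09. Ier3 (15937), a regulator of cell survival, measured 8.34 and 8.66 in sham and 8.78, 8.87 and 8.09 with the antagonist, the last below both sham hearts. Ier5 (15939) measured 6.85 and 7.50 in sham and 7.62, 7.42 and 7.06 with the antagonist. Ier3 (0.08 over all arrays) was at -0.08 without sham replicate 1, -0.07 without antagonist replicate 2 and -0.02 without antagonist replicate 1. Ier5 (0.19) was at -0.13 without sham replicate 1.

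Among the feedback genes, the differences of the 4 DUSP members lay between -0.05 and 0.07 and that of Zfp36 was 0.29. Dusp1 (19252), a nuclear phosphatase of p38, JNK and ERK, measured 9.85 and 9.89 in sham and exactly the same value, 9.83, on all antagonist arrays. Its groups do not overlap, but the difference was -0.05 (0.968-fold), with a limma adjusted p of 0.64. Without sham replicate 1 it was -0.07, where 1 sham value is set against 3 equal ones. Dusp2 (13537) had the same value of 5.34 on 3 arrays, with 5.66 on antagonist replicate 2 and 4.96 on antagonist replicate 3, and Dusp5 (240672) 5.78 on the same 3 arrays, with 6.04 and 5.73 on the other two. Dusp6 (67603), a cytoplasmic phosphatase of ERK, lay between 7.03 and 7.36 with a difference of 0.05, and its second, dimmer probe gave -0.01. Signs changed for Dusp2 without antagonist replicate 3 (0.16 against -0.03), for Dusp5 without antagonist replicate 2 (-0.03 against 0.07) and for Dusp6 without sham replicate 1 (-0.03) or antagonist replicate 3 (-0.0012). Zfp36 (22695), the messenger decay factor tristetraprolin, measured 9.17 and 9.22 in sham and 9.32, 9.89 and 9.22 with the antagonist. Its groups are parted by 0.0024 only, and the difference of 0.29 ± 0.24 (SE) was 0.08 without antagonist replicate 2. Zfp36l1 (12192), its paralog, lay between 8.71 and 9.05 with a difference of -0.12. The second, dimmer probe of Zfp36l1 (mean 5.11, against 8.94) gave 0.18.

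The KLF family, zinc finger factors of vessel wall and muscle, split evenly. Klf4 (16600) measured 8.003 and 7.87 in sham and 7.54, 7.65 and 7.78 with the antagonist, without overlap. Its difference was -0.29 ± 0.09 (SE; 95% interval -0.55 to -0.02), with an unadjusted p of 0.040, a limma adjusted p of 0.64 and an exact permutation p of 0.20. It stayed between -0.35 and -0.22 with any single array left out. Klf2 (16598), a factor of endothelium under flow, measured 6.95 and 7.25 in sham and 6.85, 7.02 and 7.35 with the antagonist, a difference of -0.03 that was 0.12 without sham replicate 2 and 0.08 without antagonist replicate 1. Klf6 (23849) measured 8.72 and 8.83 in sham and 8.81 on all antagonist arrays. Its difference of 0.04 was -0.02 without sham replicate 1 and 0.09 without sham replicate 2, each time against the 3 equal values. Klf10 (21847), induced by TGF-beta, measured 6.44 and 6.80 in sham and 6.97, 7.35 and 6.48 with the antagonist, or 0.32 ± 0.32 (SE). It was at 0.11 without antagonist replicate 2, 0.14 without sham replicate 1 and 0.54 without antagonist replicate 3.

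The groups did not overlap for 6 members, Egr2, Dusp1 and Klf4 lower and Maff, Zfp36 and Gadd45b higher with the antagonist. These are 18.8% of the 32, beside 12.5% of all genes (6.19% higher and 6.33% lower). With fewer arrays the groups part more often for all genes. Without sham replicate 1 they did so for 10 members (42.1% of all genes), without sham replicate 2 for 17 (52.7%), without antagonist replicate 1 for 6 (17.8%), without antagonist replicate 2 for 11 (17.6%) and without antagonist replicate 3 for 13 (17.9%). For 29 of the 32 members the spread inside one of the groups, the gap between the sham hearts or the range of the antagonist hearts, exceeded the difference of the means. The sign of the difference held with each array left out for 16 members, 8 higher and 8 lower, and changed for the other 16. Neither of these counts was set beside all genes, so neither can be read as particular to the members.

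**Figure D3:**
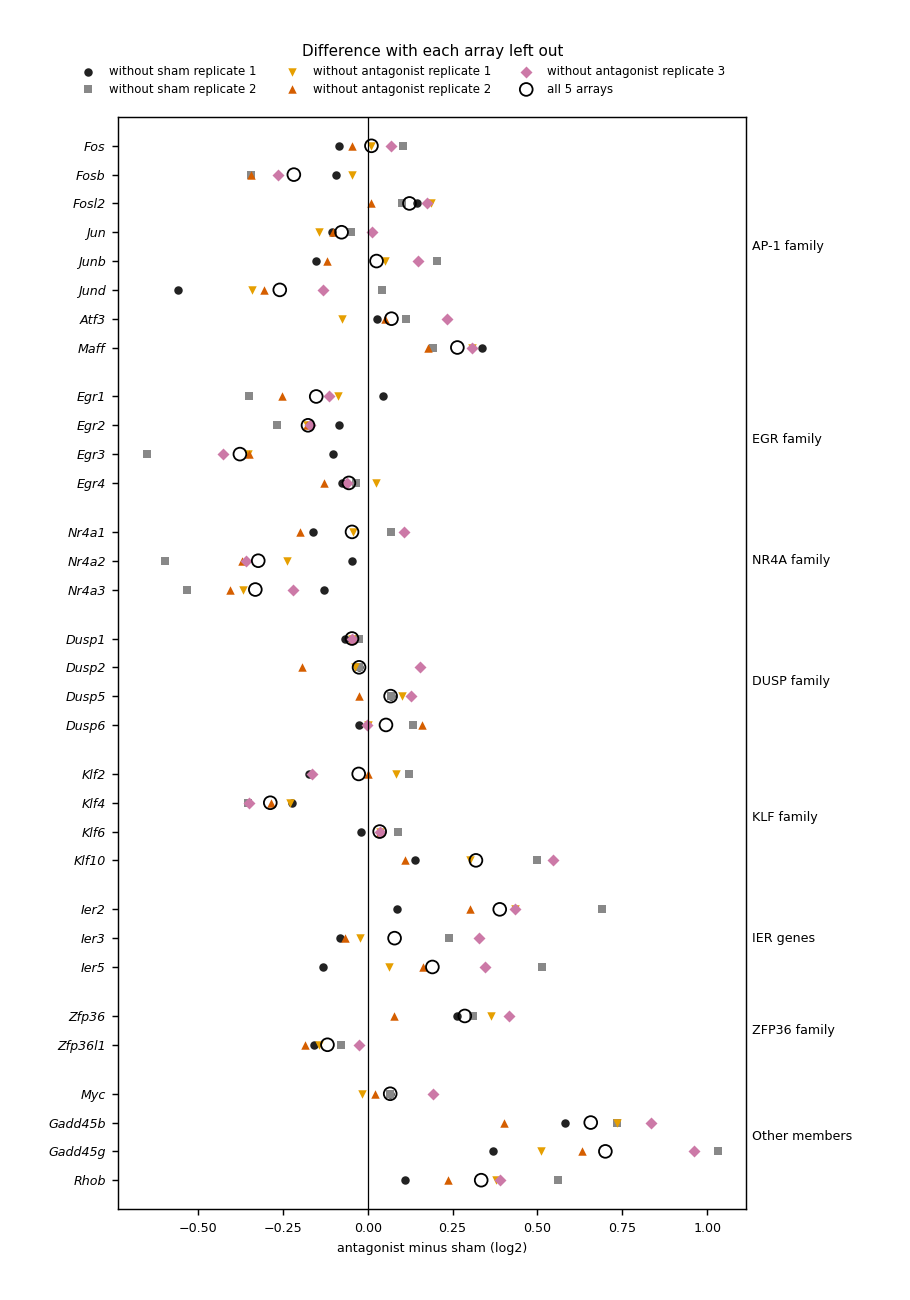
Antagonist minus sham difference (log2) of each of 32 members over all 5 arrays (open circles) and with each array left out (filled points). Points lie on both sides of 0 for 16 members; those of Gadd45b, Gadd45g and Maff stay to the right of 0 and those of Klf4, Egr3 and Nr4a3 to the left.

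Values of the members were spread widely from heart to heart. The median range over the 5 arrays was 0.57 for the members and 0.24 for all genes tested, and the median SD among antagonist hearts was 0.19 and 0.06. The sets differ in ties: 37.5% of the members and 73.9% of all genes had fewer than 5 different values. The median member measured 7.74 to 8.10 on an array, while the filter let in genes from a mean of 3.42. The part of ties and level in these spreads was not tested. Among the families it was widest for Myc, Gadd45b, Gadd45g and Rhob (median range 1.0), the IER genes (0.79) and the NR4A genes (0.75), and narrowest for the DUSP genes (0.32). Antagonist replicate 2 held the highest value of 14 of 32 members (43.8%), against 17.5% of the 12926 genes with a single highest array. Antagonist replicate 3 held the lowest value of 13 of the 31 members with a single lowest array (41.9%), against 18.8% of such genes. Between these hearts, 26 members were higher on antagonist replicate 2 than on antagonist replicate 3 and 4 were lower, with a median gap of 0.31, while all genes split 36.2% to 35.1% with a median gap of 0. Without antagonist replicate 3, 19 members had a higher antagonist mean, beside 46.7% of all genes.

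The sham hearts also differed from each other, and by family. Sham replicate 1 was above sham replicate 2 for 9 members and below it for 20, with 3 equal, while 36.9% of all genes were above, 42.7% below and 20.5% equal. It was higher by 0.55 for Egr3, 0.55 for Nr4a2, 0.40 for Nr4a3, 0.39 for Egr1 and 0.18 for Egr2. It was lower for all 3 IER genes (by 0.60 for Ier2 and 0.64 for Ier5), for Gadd45g (by 0.66) and for Rhob (by 0.45). Apart from Egr4 and Nr4a1, the members of the families with lower antagonist means were thus high in this heart, and the IER genes, Gadd45g and Rhob, with higher antagonist means, were low in it. With sham replicate 1 left out, 12 of 32 members had a higher antagonist mean, beside 43.9% of all genes, and the members' median difference was -0.06. With sham replicate 2 left out 20 did, beside 47.1% of all genes, and it was 0.08.

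**Figure D4:**
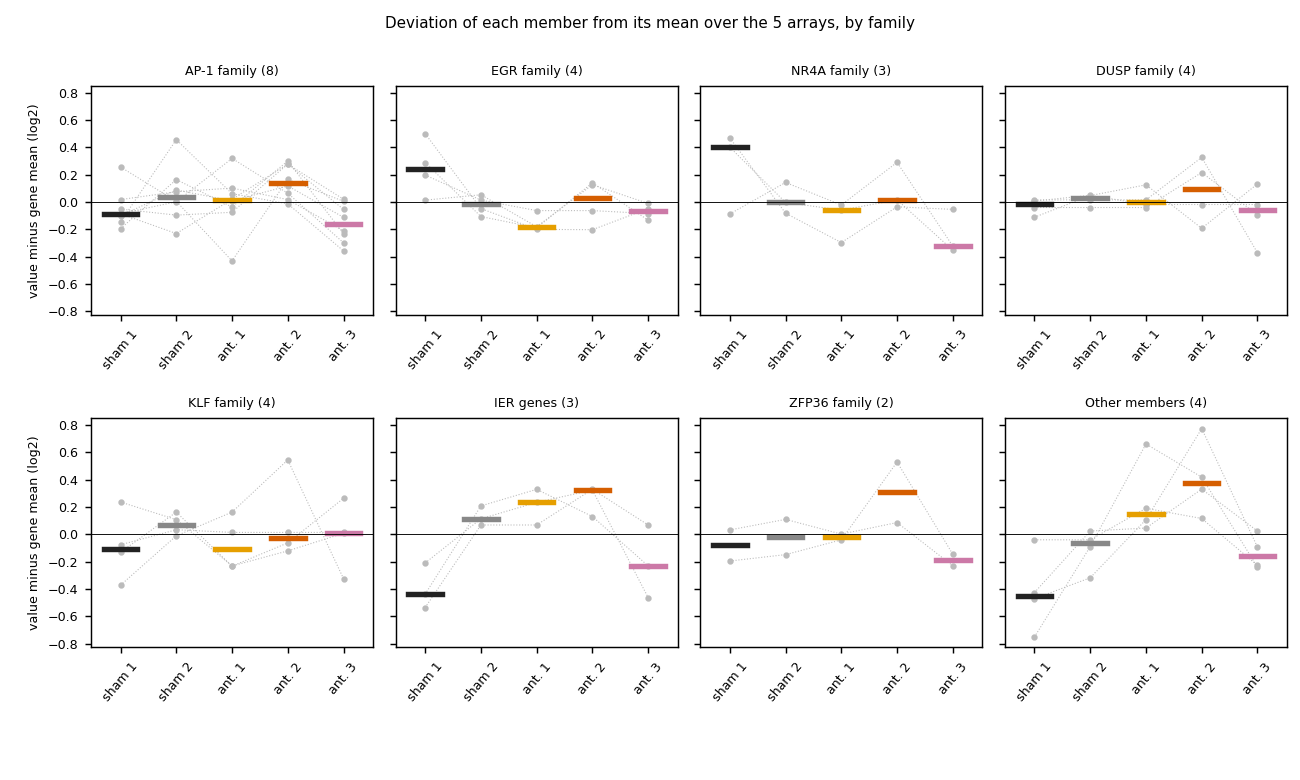
Deviation of each member from its own mean over the 5 arrays (log2), by family; small points joined by dotted lines are genes, thick bars the family median on an array, "ant." an antagonist heart, and the number of genes stands in brackets. Sham replicate 1 is high for the EGR and NR4A families and low for the IER genes and the group of Myc, Gadd45b, Gadd45g and Rhob, and antagonist replicate 3 lies below antagonist replicate 2 in most panels.

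Markers of other tissues moved with one of these arrays. On antagonist replicate 2 the atrial list was highest for 9 of 10 measured markers (mean level 9.54, against 7.43 to 7.82 on the other 4 arrays), the fat cell list for 7 of 9 (7.05, against 5.11 to 5.44) and the mesothelial list for 7 of 8 (4.87, against 4.14 to 4.23). Ventricular muscle markers stood between 11.2 and 11.3 on all arrays, led by Tnnt2 and Atp2a2, and endothelial ones between 7.98 and 8.11, led by Cdh5 and Eng. Macrophage markers lay at 6.79 and 6.86 in sham and between 6.91 and 7.06 with the antagonist, fibroblast markers between 7.92 and 8.31, and smooth muscle and pericyte markers between 7.67 and 7.87. Of 8 neutrophil markers 5 were below the level filter, and the erythroid markers had no probe with their symbol alone. The brightest markers of the other lists were Nppa and Nppb (atrial), Fabp4 and Cidea (fat), Wt1 and Upk3b (mesothelium), Dcn and Gsn (fibroblasts), Rgs5 and Abcc9 (smooth muscle and pericytes), Lyz2 and Mrc1 (macrophages) and Csf3r and Cxcr2 (neutrophils). Nppa measured 11.93 and 11.47 in sham and 11.63, 12.86 and 11.67 with the antagonist. The part of these tissues in the values of Gadd45b, Zfp36, Klf10, Fosl2 and other members that were highest on antagonist replicate 2 was not tested. Without that array 13 of 32 members had a higher antagonist mean, beside 45.8% of all genes, and the median difference was -0.05.

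The lists of other pathway genes also held 0 calls each, and their directions were not tested against those of the members. Over all genes tested, 47.7% were higher and 46.3% lower, and 6.19% lay wholly above and 6.33% wholly below the sham values. Of 38 other rapidly induced genes tested, 26 had a higher and 12 a lower mean (median difference 0.09). Among them 3 lay wholly above and 1 wholly below the sham values, and the median range over arrays was 0.45. Phlda1, a pleckstrin-homology protein of growth factor response, measured 7.37 and 7.66 in sham and 7.16, 6.72 and 6.76 with the antagonist (-0.64 ± 0.19, SE; limma adjusted p = 0.64). Hbegf, a ligand of the EGF receptor, differed by 0.18, Odc1 of polyamine synthesis by 0.23 and the growth inhibitor gene Btg1 by 0.25. Of 19 regulators at the SRF and CREB step, 5 were higher, 13 lower and 1 equal (median -0.05), and 3 lay wholly below sham, all among the 4 of smallest p. Elk3, a ternary complex factor, measured 6.81 and 6.77 in sham and 6.53, 6.59 and 6.59 with the antagonist (-0.22 ± 0.03, SE; limma adjusted p = 0.64). Its relative Elk4 differed by -0.16, the CREB coactivator gene Crtc3 by -0.05 and Mef2c by -0.39, the last with sham values of 8.15 and 7.49. Of 25 MAP kinase cascade genes 17 were higher and 8 lower (median 0.02). Map2k6, a kinase of p38, measured 5.69 and 5.82 in sham and 5.35, 5.22 and 4.95 with the antagonist (-0.58 ± 0.14, SE), while Mapkapk2, a target of p38, differed by 0.31 ± 0.10 (SE), Mapk11 by -0.16 and Map2k2 by -0.16, all with a limma adjusted p of 0.64.

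Family relatives outside the list had narrower ranges at the median. The median range over arrays was 0.23 for 17 other DUSP genes and 0.32 for the member DUSP genes. It was 0.18 for 13 other KLF genes and 0.48 for the member KLF genes. The relatives also measured lower. The mean level on an array was 5.53 to 5.56 for all 19 other DUSP genes measured, with those below the level filter, and 6.97 to 7.14 for the members. For KLF genes it was 5.73 to 5.78 and 7.53 to 7.71. The ranges were not compared at equal level and were not tested against each other. Among other AP-1 and MAF basic zipper genes 7 of 12 were higher, 4 lower and 1 equal. Mafg, a dimer partner and paralog of Maff, measured 5.22 and 5.34 in sham and 5.55, 5.60 and 5.63 with the antagonist (0.32 ± 0.05, SE), and Atf6, a sensor of the endoplasmic reticulum, 9.31 and 9.21 against 9.55, 9.48 and 9.62 (0.29 ± 0.06, SE), both with a limma adjusted p of 0.64. Of the other DUSP genes 7 were higher, 9 lower and 1 equal (Dusp18 0.39, Dusp8 0.09), and of the other KLF genes 8 were higher, 4 lower and 1 equal (Klf12 -0.27, Klf11 0.10). Of 9 tested relatives of the remaining members 2 were higher and 7 lower, with Rhoc at 0.37 and Rhoa at -0.11.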

How the data were processed

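Total RNA (300 ng a heart) was labelled as biotinylated single-stranded DNA for Affymetrix arrays, per the labels' protocols. The deposited values are log2 expression made with RMA, per the submitters' processing notes. RMA's version and the build were not given in the sources used here. The table held 41345 probes on 5 arrays, with array medians from 3.92 to 3.95. Probes were named from the platform annotation: 23521 carried 1 symbol, 1814 several and 16010 were not named.

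For each symbol the probe of highest mean was kept, and 15294 genes whose mean reached the 40th percentile over probes entered the test. The 2 groups were compared by a two-sided moderated test (limma 3.58.1, R 4.3.3) without covariates, and p-values were adjusted by Benjamini-Hochberg over all genes, with a threshold of 0.05. Many of the deposited values are exactly equal between arrays, so a small SE can come with ties. The source of the ties was not tested. Exact permutation tests were two-sided over 10 divisions of the arrays. The code was tested on simulated data. The members and lists were chosen with earlier results of these data known. All members are named; of other lists, the 4 (pathway) or 2 (relatives) genes of smallest p and the 2 brightest markers of each measured cell type; other genes were named after their values were seen. The labels call the arrays biological replicates. Whether same-numbered hearts are paired is not stated in the labels. Alternatives covered the filter, normalization, probes, variance model, array weights, replicate block and each array left out; a limit to genes without ties was added after seeing the data.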

Additional observations from a re-analysis of the deposited data

How the results depend on the processing

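The absence of calls held in limma under the 9 other settings that gave all 5 arrays to the fit (the smallest member adjusted p among them was 0.61) and among genes with 5 different values, where 0 genes and 0 members passed. With the replicate number as a replicate block, antagonist replicate 3 has no partner and drops out of the comparison, so that each difference equals the one without that array. There 19 of 32 members were higher with a median difference of 0.09, and 0 genes passed. Hearts with the same number had deviations correlated at -0.11 (replicates 1) and 0.03 (replicates 2), and nothing in the labels pairs them. The deviations of 2 sham hearts from their mean are mirror images, so these correlations cannot show whether hearts are paired. Under the block Jun (0.0135), Nr4a1 (0.11), Dusp2 (0.16) and Dusp6 (-0.0012) changed sign. Fos was at -0.013 after a second quantile normalization, and Zfp36l1 at 0.032 as the mean of its probes. For the first of these the cause was not tested. The second, dimmer probe of Zfp36l1 has the other sign.

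Leaving out single arrays gave 12 to 20 members higher, median differences from -0.06 to 0.09, and 6 to 17 members without overlap, against 6 over all arrays. With any antagonist array left out, 0 genes were called. The calls came without sham replicate 1 (1319 genes, 1 member) or sham replicate 2 (2058 genes, 2 members), where the lone sham array is assumed to vary like the antagonist arrays, whose values are often equal. The counts without overlap were 10 without sham replicate 1, 17 without sham replicate 2, 11 without antagonist replicate 2 and 13 without antagonist replicate 3. With fewer values to part, the share of all genes without overlap was then 42.1%, 52.7%, 17.6% and 17.9%, against 12.5% over all arrays. The differences that changed sign ranged, for Fos, from -0.083 to 0.11, Jun from -0.14 to 0.0135, Junb from -0.15 to 0.21, Jund from -0.56 to 0.042, Egr1 from -0.35 to 0.046, Egr4 from -0.13 to 0.024, Atf3 from -0.075 to 0.23, Ier3 from -0.082 to 0.33, Ier5 from -0.13 to 0.51, Nr4a1 from -0.20 to 0.11, Dusp2 from -0.19 to 0.16, Dusp5 from -0.027 to 0.13, Dusp6 from -0.025 to 0.16, Myc from -0.016 to 0.19, Klf2 from -0.17 to 0.12 and Klf6 from -0.020 to 0.090. The cause of these sign changes was not tested. Egr4, with a mean of 3.76, is near the level filter.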

Other observations

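Among the other rapidly induced genes, the 3 with the largest positive differences were each highest on antagonist replicate 2; the genes named here were chosen after their values were seen, and none passed limma's adjustment. Nfkbia, which encodes an inhibitor of NF-kB, measured 8.03 and 8.18 in sham and 8.59, 9.69 and 8.39 with the antagonist, a difference of 0.78 that was 0.39 without antagonist replicate 2. Irf1, an interferon regulatory factor gene, measured 6.25 and 6.60 in sham and 6.81, 8.16 and 6.45 with the antagonist (0.71, and 0.20 without that array). Tnfaip3, whose product restrains NF-kB, measured 6.12 and 6.36 in sham and 6.65, 7.97 and 6.04 with the antagonist (0.65, and 0.11 without it). On that array Nfkbia, Irf1 and Tnfaip3 stood 1.10, 1.35 and 1.32 above their next highest value. The atrial, fat cell and mesothelial marker lists were also highest there, and their part in these values was not tested. Ccn2, a matrix protein gene, measured 7.11 and 7.92 in sham and 8.03, 8.18 and 7.66 with the antagonist, and the kinase gene Pim1 6.76 and 7.54 against 7.94, 7.67 and 7.11. Both were lowest on sham replicate 1, as Ier2, Ier5, Gadd45g and Rhob were.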
